A study of Mus musculus with 2 samples.

Results

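The genes described here are 38 cell-cycle genes of the mouse, measured in leukocytes from B16F10 tumours. They were taken from a list of symbols and all 38 were found, each at a single row of the 32285 genes in the count tables. By the phase in which their products work they form 4 groups. These are 2 G1/S cyclins, 14 genes of DNA replication, 3 genes used in both phases and 19 genes of mitosis. The values come from 2 single-cell RNA sequencing libraries, 1 per group, of CD45-positive cells sorted by FACS from subcutaneous tumours of B16F10, a transplantable mouse melanoma line. The control group had received bone-marrow-derived macrophages without treatment and the IL4 group such macrophages treated with IL4, a cytokine of type 2 immunity. The genotype is labelled WT for both groups. A protocol label names the IL4-treated transfer for both libraries, so the grouping rests on the treatment and library-name labels. The strain, sex, age and number of mice, and the time after transfer, are not given in the sources used here. With 1 library per group no difference has a replicate check, so no test was made. Each interval below is an exact 95% interval for counting error, apart from those of differences between shares, and differences between mice are part of every value.

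Cells copy their DNA in S phase and divide it in mitosis, and the genes needed for each step are transcribed in separate waves. E2F factors drive the first wave at the G1/S border once cyclin E with CDK2 has lifted the block by RB. The mitotic wave follows in G2 through B-MYB, FOXM1 and the MuvB complex, which binds a short element called the CHR in many mitotic promoters. Activated T cells and NK cells, the innate killer lymphocytes, divide in tissues, whereas neutrophils leave the bone marrow after their last division. Macrophages and dendritic cells can divide locally, and much of their number in tumours comes from monocytes.

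The control library held 8994 barcodes and 95499107 UMIs (unique molecular identifiers, each standing for a captured RNA molecule), and the IL4 library 13873 barcodes and 133151428 UMIs. After filtering 8937 and 13762 cells remained. Cell types were set by marker genes, none of which is a cell-cycle gene of the list. Of each type's markers, all were highest in that type in both libraries for NK cells, CD8 T cells, type 1 conventional dendritic cells (DCs), mature DCs, plasmacytoid DCs, neutrophils and B cells. This held for 10 or 11 of 12 macrophage markers, but for only 5 of 9 monocyte and 5 of 10 type 2 conventional DC markers, so these names rest on fewer defining genes. Cells were gated by these same markers, so the result describes the gates and is no independent check of the names. The CD8 list held only 2 genes. Cells between the macrophage and monocyte gates are called intermediates, and they had no part in the marker comparison. Barcodes with both lymphocyte and myeloid markers were set apart as mixed (399 and 862), and no doublet caller was run. Among cells with either Xist or Y-linked UMIs but not both, Y-only cells made up 36.8% of the control and 10.9% of the IL4 library, so the libraries differ in the sexes of the cells they hold. The number of barcodes present in both libraries was 23.

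The sequences of promoters are shown because the shares with certain short matches differ between the 2 gene groups, without use of any count. The promoters printed below are chosen examples with matches, and those without are not printed. RefSeq promoter windows of GRCm38.p6, from 250 bases before to 50 after the start of transcription, were given for 31 of the 38 genes, among them 12 replication and 17 mitotic ones, and the first listed start was used. Matches were sought on both strands to TTTGAA (the CHR), to CCAAT (the CCAAT box) and to E2F sites. The E2F forms searched were TTCCCGC and, in the same way, TTCGCGC, then also TTGGCGC, and lastly TTGCCGC. The E2F and CCAAT letters can overlap, as they did in 3 of 23 E2F matches. A CHR match lay in 13 of 17 mitotic and 1 of 12 replication promoters, against 18.1% of the 27025 genes in the table, which include non-coding genes. E2F matches lay in 8 of 12 replication and 3 of 17 mitotic promoters, against 9.69% of all. The CCAAT box lay in 16 of 17 mitotic and 10 of 12 replication promoters, against 37.9% of all. Genes of the same pathways outside the list gave the same order. Here 23 of 33 mitotic and 3 of 22 replication promoters had a CHR match, and 5 of 33 and 15 of 22 an E2F match. A match is a description of letters and not of a factor bound there.

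In the promoters of Mcm6 and Mcm7, subunits of the replicative helicase, and of Pclaf, a partner of the sliding clamp PCNA, capitals mark E2F matches. Positions are counted from +1 at the start of transcription, and each window runs from 170 bases before it to 30 bases from it on the gene's strand. The 4 matches that lie wholly in the Mcm6 window began at -109, -106, -46 and -43 and overlapped in pairs. Another Mcm6 match began at 25 and ran past the end of the window, so it is not in capitals. The matches in Mcm7 began at -165, 18 and 21, and those in Pclaf at -5 and 23.
Mcm6, chr1:128359676-128359875, minus strand: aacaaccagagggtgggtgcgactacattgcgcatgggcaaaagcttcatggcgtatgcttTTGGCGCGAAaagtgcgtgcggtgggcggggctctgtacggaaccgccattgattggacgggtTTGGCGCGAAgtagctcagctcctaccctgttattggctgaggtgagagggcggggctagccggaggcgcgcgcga
Mcm7, chr5:138171854-138172053, minus strand: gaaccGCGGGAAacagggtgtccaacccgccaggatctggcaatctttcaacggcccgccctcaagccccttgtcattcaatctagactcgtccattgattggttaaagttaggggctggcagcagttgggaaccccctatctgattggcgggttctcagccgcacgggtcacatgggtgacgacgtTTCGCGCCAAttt
Pclaf, chr9:65890153-65890352, plus strand: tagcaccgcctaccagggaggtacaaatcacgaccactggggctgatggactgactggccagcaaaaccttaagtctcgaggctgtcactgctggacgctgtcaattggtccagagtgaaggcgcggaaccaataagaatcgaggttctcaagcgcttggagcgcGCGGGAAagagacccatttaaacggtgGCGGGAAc

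In the promoters of Ccnb2, a mitotic cyclin, Cdc20, an activator of the anaphase-promoting complex, and Cenpf, a kinetochore protein, capitals mark CHR matches. They began at -167 and 5 in Ccnb2, at -18 in Cdc20 and at 3 in Cenpf, so each promoter had a match within 20 bases of the start. In the 300-base windows these genes also had 3, 2 and 2 CCAAT boxes.
Ccnb2, chr9:70421525-70421724, minus strand: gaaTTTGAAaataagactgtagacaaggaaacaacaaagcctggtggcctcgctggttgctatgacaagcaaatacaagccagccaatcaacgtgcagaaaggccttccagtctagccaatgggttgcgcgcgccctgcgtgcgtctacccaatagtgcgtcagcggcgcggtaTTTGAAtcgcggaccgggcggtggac
Cdc20, chr4:118437314-118437513, minus strand: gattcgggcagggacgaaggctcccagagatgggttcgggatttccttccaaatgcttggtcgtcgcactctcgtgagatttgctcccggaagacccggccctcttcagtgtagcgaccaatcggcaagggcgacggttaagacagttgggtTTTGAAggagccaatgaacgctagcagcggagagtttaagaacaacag
Cenpf, chr1:189688057-189688256, minus strand: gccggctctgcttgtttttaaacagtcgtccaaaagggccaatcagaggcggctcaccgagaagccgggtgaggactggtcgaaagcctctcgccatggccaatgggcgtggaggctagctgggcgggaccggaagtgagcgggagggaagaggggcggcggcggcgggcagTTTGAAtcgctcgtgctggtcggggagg

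Among the named types with at least 100 cells in each library, cell-cycle transcripts were most abundant in CD8 T cells, the cytotoxic T cells, and monocytes were among the lowest. Levels are UMIs of a group scaled to the UMIs of the cell type as CPM, the usual depth-scaled unit. The 14 replication genes together stood at 1275 CPM (1222 to 1330) in control and 1333 CPM (1289 to 1377) in IL4 CD8 T cells. Their 19 mitotic counterparts stood at 1778 CPM (1715 to 1842) and 1955 CPM (1903 to 2009). Type 1 conventional DCs, which present antigen to CD8 T cells, were highest among the named myeloid types, with 578 and 534 CPM for replication and 807 and 769.7 CPM for mitosis. Macrophages had 252 and 199.9 CPM for replication and 175 and 125 CPM for mitosis. Monocytes had 105 and 121 CPM, and 50.5 and 78.7 CPM. Over all kept cells both groups were level between the libraries, at 292 CPM each for replication and at 307 and 311 CPM for mitosis. Over all kept cells none of the 38 genes was 1.5-fold higher, where 1.01% of all genes were, or lower, where 0.983% were. The differences between the libraries given below are those within cell types.

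**Figure D1:**
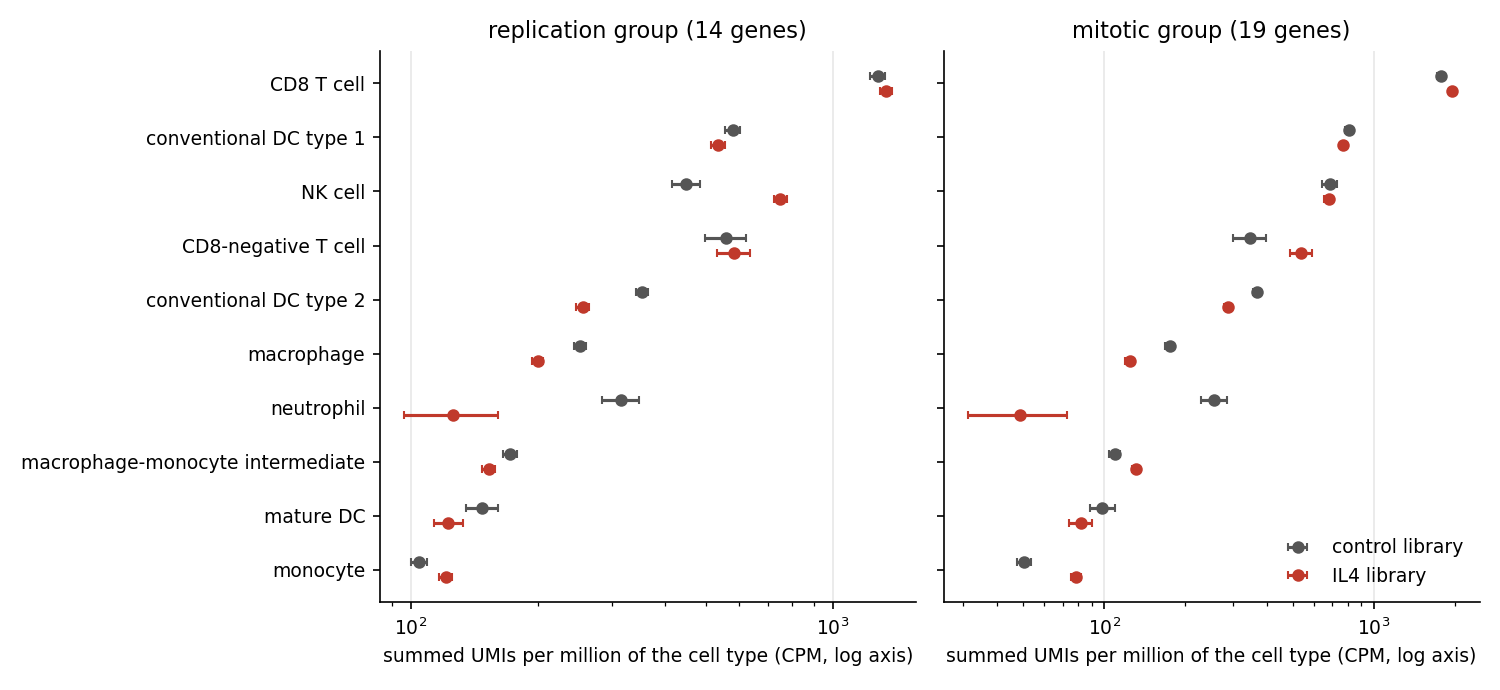
Summed UMIs of the 14 replication genes (left) and the 19 mitotic genes (right) in each cell type as CPM, on a log axis, in the control (grey) and IL4 (red) library, with exact 95% counting intervals. CD8 T cells lie highest in both panels, NK cells are set apart between the libraries on the left but not on the right, and monocytes lie lowest or near it.

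The balance of the groups differed between types. Of the UMIs of both groups, mitotic genes held 58.2% (56.9% to 59.6%) in control and 59.5% (58.4% to 60.5%) in IL4 CD8 T cells, and 58.3% and 59.0% in type 1 conventional DCs. In macrophages they held 41.0% (39.8% to 42.2%) and 38.4% (37.2% to 39.5%), and in monocytes 32.6% and 39.5%. NK cells went from 60.4% (58.0% to 62.7%) in the control to 47.6% (46.3% to 48.9%) in the IL4 library, the widest gap among the types described in full below. Pcna, the sliding clamp of DNA polymerase that also serves DNA repair, supplied 60.2 of the 105 CPM of replication genes in control and 63.8 of the 121 CPM in IL4 monocytes.

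Whether the division of the list into replication and mitotic genes holds in these cells was examined cell by cell. Each cell was thinned to 2000 UMIs and called positive for a group at 2 or more UMIs of it, which gave replication-only, both, mitotic-only and negative cells. Each gene was then read in cells classed without it. All 19 mitotic genes were higher in mitotic-only than in replication-only cells, by log2 ratios of 1.53 to 5.28 in lymphocytes and 1.48 to 4.45 in myeloid cells. Cenpf lay at 5.97 CPM in replication-only and 269 CPM in mitotic-only lymphocytes, and Ube2c, a ubiquitin-conjugating enzyme of the anaphase-promoting complex, at 16.7 and 539 CPM. Plk1, a kinase of mitotic entry, had 1 UMI in replication-only and 40 UMIs in mitotic-only lymphocytes. Among the mitotic genes with the smallest ratios were Bub1b, of the spindle checkpoint, with 17.2 and 51.5 CPM, and Top2a, the topoisomerase that untangles chromosomes, with 111 and 352 CPM in lymphocytes.

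The replication group divided. All 6 Mcm genes, Pcna, Gins2 of the helicase-bound GINS complex and Uhrf1, which guides maintenance DNA methylation, were higher in replication-only cells in both lymphocytes and myeloid cells. Mcm2 lay at 67.4 CPM in replication-only and 21.6 CPM in mitotic-only lymphocytes, a log2 ratio of -1.59, and at 30.9 and 11.8 CPM in myeloid cells. The enzymes of nucleotide supply did not follow. Rrm1 and Rrm2, the subunits of ribonucleotide reductase, and Tyms, thymidylate synthase, were higher in mitotic-only cells of both kinds, with log2 ratios from 0.12 to 0.79. Pclaf was the furthest over, at 112 and 277 CPM in lymphocytes and 55.7 and 127 CPM in myeloid cells. Tk1, thymidine kinase, had 32.2 and 32.1 CPM in lymphocytes and 11.4 and 18.3 CPM in myeloid cells. Each gene of both groups was higher in cells positive for both groups than in negative cells. The classes differed in their cell types, so the pooled ratios also hold differences between types: of the replication-only lymphocytes 17 of 35 (control) and 62 of 97 (IL4) were NK cells, while of the mitotic-only ones 22 of 35 and 22 of 47 were CD8 T cells. Read within NK cells, CD8 T cells and macrophages apart, all 19 mitotic genes were again higher in mitotic-only cells and all 6 Mcm genes in replication-only cells. Pclaf stayed on the mitotic side in each, with log2 ratios of 1.27, 1.503 and 1.77. Tyms did not, with -0.01 in NK cells, 0.66 in CD8 T cells and -0.61 in macrophages, nor did Rrm2, with 0.71, 1.25 and -0.19. How far the make-up of the classes enters the pooled values of the outside genes below was not tested.

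**Figure D2:**
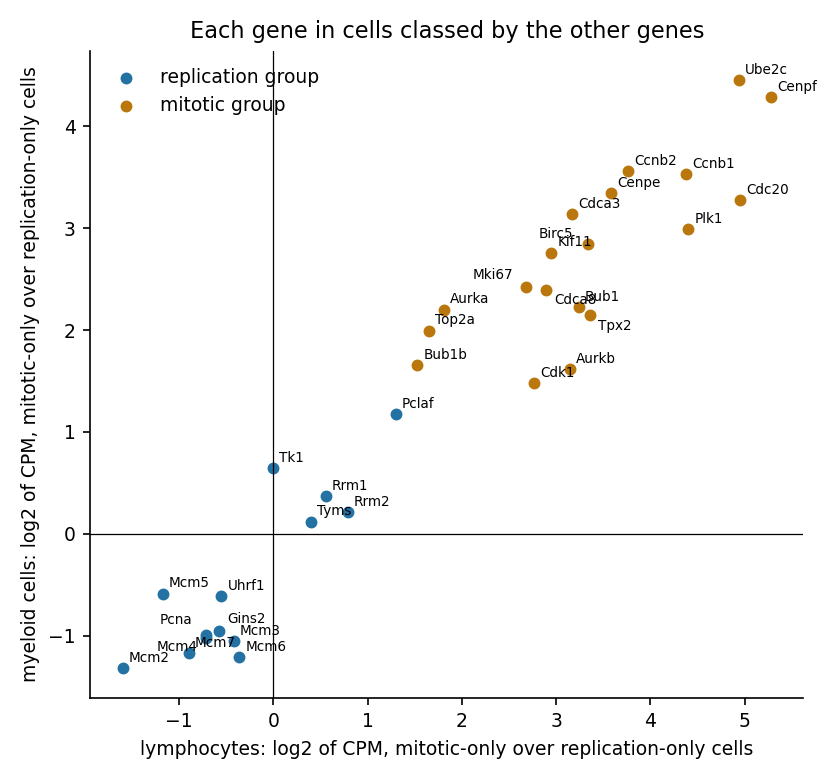
Log2 ratio of each replication (blue) and mitotic (brown) gene between mitotic-only and replication-only cells, with cells classed by the other genes, in lymphocytes (horizontal) and myeloid cells (vertical), both libraries together. All 19 mitotic genes lie above 0 on both axes, the 6 Mcm genes, Pcna, Gins2 and Uhrf1 lie below 0 on both, and Pclaf, Rrm1, Rrm2 and Tyms lie above 0 on both.

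Genes that took no part in the classes were read in the same cells. Ccne1, the cyclin E that opens S phase with CDK2, lay at 12.3 CPM in replication-only and 8.27 CPM in mitotic-only IL4 myeloid cells, and at 46.0 CPM in cells positive for both. In control lymphocytes it was not lower in mitotic-only cells, with 27.3 CPM (11 UMIs) and 31.1 CPM (16 UMIs). Ccna2, cyclin A, which works from S phase into mitosis, was high in mitotic-only IL4 lymphocytes at 133 CPM and low in replication-only ones with 7 UMIs. Stmn1, which destabilises microtubules, lay at 257 and 521 CPM in replication-only and mitotic-only IL4 lymphocytes. Mybl2, which encodes B-MYB, was close between the classes, with 7.42 and 7.48 CPM, and highest in cells positive for both, at 34.6 CPM. Mitosis genes outside the list divided clearly: at least 1.5-fold higher in mitotic-only cells were 29 of the 31 with at least 20 UMIs in control and 34 of 35 in IL4 lymphocytes, and 39 of 40 and 37 of 39 in myeloid cells. Of all genes with as many UMIs, 16% and 13.4% were so in lymphocytes and 10.3% and 10.2% in myeloid cells. Replication genes outside the list divided less. Higher by that measure in replication-only cells were 5 of 20 and 5 of 27 in lymphocytes, and 19 of 28 and 7 of 28 in myeloid cells, where 13.3%, 12.5%, 8.52% and 6.65% of all genes were. Higher in mitotic-only cells instead were 4 and 2 of them in lymphocytes, and 0 and 5 in myeloid cells.

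Among the named types with at least 100 cells in each library, CD8 T cells also had the largest share of cells with such transcripts. After thinning to 2000 UMIs, control CD8 T cells were replication-positive in 33.0% (24.2% to 42.8%) and IL4 ones in 41.5% (34.5% to 48.8%) of cases, and 45.3% and 42.6% mitotic-positive. In type 1 conventional DCs 21.3% and 15.8% were replication-positive, and 19.3% and 19.1% mitotic-positive. Neutrophils, which should hold few dividing cells, give a level to compare with. Of them 2.76% (6 of 217) and 1.96% (2 of 102) were replication-positive, and 1.84% and 0 of 102 mitotic-positive. The exact interval of that 0 of 102 reaches 3.55%. The 7 control neutrophils positive for either group were unlike the other 210. Their median was 18554 against 3208 UMIs, NK markers stood at 243 against 34.5 CPM, and 2 of 7 against 5 of 210 held a melanoma UMI. The part of RNA from other cells in the neutrophil shares was not tested, so they are no clean measure of background. Before thinning the median neutrophil held 3102 and 2559 UMIs, against 14528 and 10235.5 UMIs in CD8 T cells. Without thinning 79.2% and 74.0% of CD8 T cells, and 8.27% and 8.94% of neutrophils, were replication-positive. Monocytes, with 2.11% and 2.20% replication-positive and 1.06% and 1.57% mitotic-positive cells, were not distinguished from the neutrophil shares, whose intervals reached 5.92% and 6.90% for replication and 4.65% and 3.55% for mitosis. Free RNA was not measured apart from this. The calls also depend on cells at the limit: 12 control and 47 IL4 NK cells had exactly 2 replication UMIs, and 46 and 98 had 1.

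**Figure D3:**
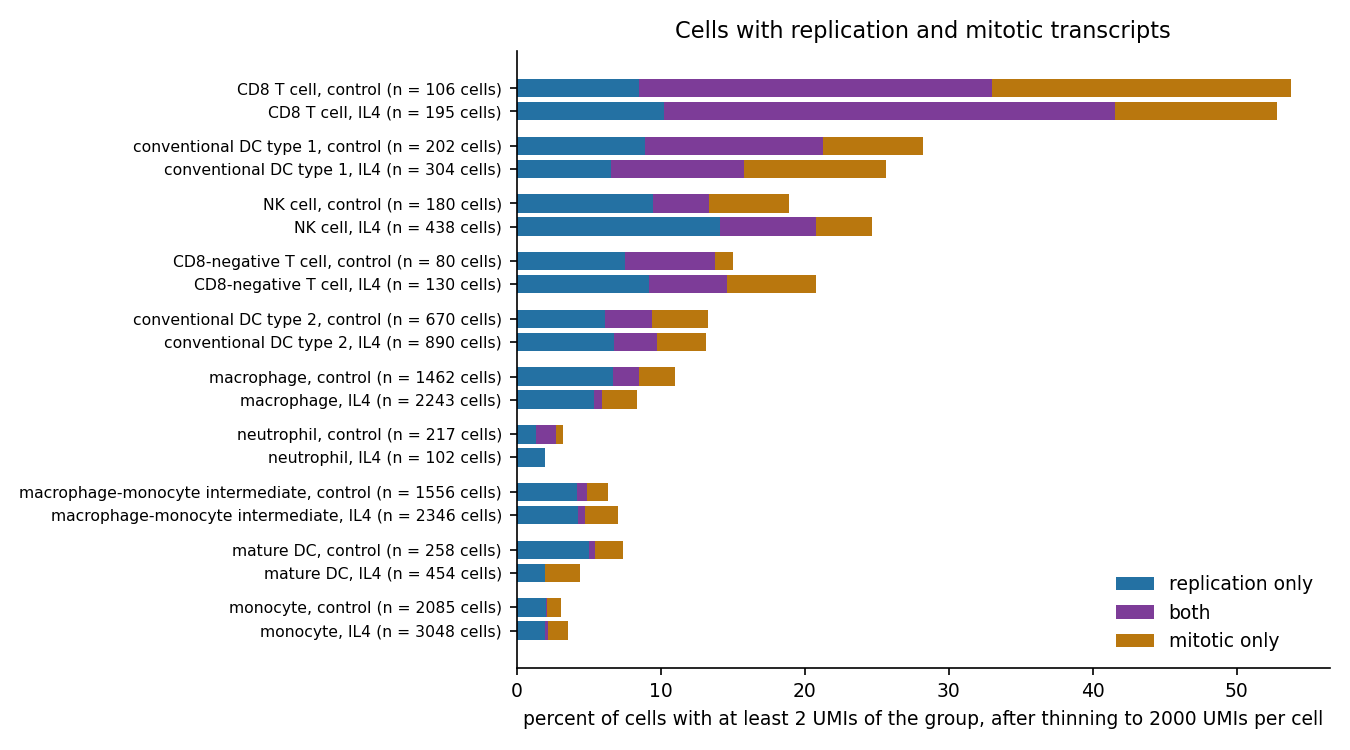
Share of cells, thinned to 2000 UMIs each, with at least 2 UMIs of the replication group only (blue), of both groups (purple) or of the mitotic group only (brown), by cell type and library. CD8 T cells have the longest bars, IL4 NK cells have a longer blue part than control NK cells (14.2% against 9.44%), and monocytes and neutrophils have the shortest bars.

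In NK cells the replication genes were higher in the IL4 library and the mitotic genes, summed, were not. The 14 replication genes stood at 449.5 CPM (416 to 485) in 180 control cells and 751 CPM (723 to 779) in 442 IL4 cells, 1.67-fold higher (1.54 to 1.82). The mitotic sum of 19 genes was 686 CPM (645 to 729) and 682 CPM (656 to 708), which gives 0.994-fold (0.924 to 1.07). All 14 replication genes had a log2 ratio above 0 and 10 were at least 1.5-fold higher, where 5.97% of 10114 genes were, while 9 of 19 mitotic genes were above 0 and none reached 1.5-fold. The group medians were 0.94 and -0.02 on the log2 scale of CPM plus 1, beside -0.04 over all genes with at least 20 UMIs. All 38 genes had that many.

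The Mcm helicase genes shared in the NK difference, as did other genes of the replication group. Mcm2 stood at 13.2 CPM in the control and 36.8 CPM in the IL4 library, the highest ratio of the list (log2 1.41, 2.78-fold, 1.73 to 4.69). Mcm4 stood at 24.5 and 54.8 CPM, Mcm3 at 25.2 and 52.4 CPM, Mcm7 at 23.2 and 47.7 CPM and Mcm5 at 23.2 and 38.3 CPM (1.65-fold, 1.14 to 2.47). Mcm6 was closer, at 87.4 and 100.2 CPM, and its fold of 1.15 had an interval from 0.938 to 1.41. Of the enzymes that supply nucleotides, Rrm2 stood at 11.3 and 29.7 CPM (2.64-fold, 1.58 to 4.69) and Tk1 at 9.93 and 23.7 CPM (2.39-fold, 1.38 to 4.44). Rrm1, at 33.1 and 37.8 CPM, and Tyms, at 21.8 and 29.0 CPM, had intervals that hold 1. Pcna stood at 93.3 and 143 CPM (1.53-fold, 1.27 to 1.86), and Pclaf and Uhrf1 were 1.94-fold and 1.97-fold higher. Gins2 stood at 9.93 and 14.1 CPM, a fold of 1.42 (0.789 to 2.71).

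Upstream of replication, Ccne1 stood at 12.6 CPM in control and 24.0 CPM in IL4 NK cells (1.91-fold, 1.16 to 3.31), while Ccne2, the second cyclin E, stood at 11.9 and 10.2 CPM. Stmn1 stood at 152 and 238 CPM (1.57-fold, 1.36 to 1.82), whereas Ccna2, at 21.2 and 26.1 CPM, and Mybl2, with 7 and 20 UMIs, had intervals that hold 1. Genes of replication outside the list were alike: 20 of 28 were at least 1.5-fold higher and none lower, with a median log2 ratio of 0.76. Cdc6, which loads the helicase, had 5 and 61 UMIs (3.31 and 15.9 CPM), and Prim1, the primase, stood at 9.93 and 27.1 CPM. Gins3 had 3 and 24 UMIs. Of 23 regulators with enough UMIs 5 were higher and 1 lower, against 5.97% and 7.49% of all genes. E2f1, an activating E2F, had 5 and 69 UMIs (3.31 and 17.997 CPM), E2f2 7.94 and 15.6 CPM, and Cdk2, the partner of cyclin E, 4 and 28 UMIs. Cdkn1a, the CDK inhibitor p21, was also higher, at 138 and 226 CPM. These sums do not show whether the same cells held activators and inhibitor. In pooled lymphocytes, which include T cells, Cdkn1a went from 137 (control) to 233 CPM (IL4) in negative cells. It went from 95.4 to 202 CPM in mitotic-only cells, but stayed level in replication-only ones (171, then 175 CPM). E2f1 went from 12.4 CPM (5 UMIs) to 36.2 CPM in replication-only cells. Negative cells had 3.36, then 4.99 CPM of E2f1.

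The mitotic genes of NK cells went both ways. Mki67, which coats mitotic chromosomes and serves as a marker of division, stood at 121 and 127 CPM, and Top2a at 88.7 and 105 CPM. Cdk1, the kinase of mitotic entry, stood at 14.6 and 19.04 CPM (1.31-fold, 0.802 to 2.21). Lower by at least 1.5-fold were 3 of 19, where 7.49% of all genes were. These were Plk1 with 12 and 15 UMIs, Cenpf at 80.8 and 45.9 CPM (0.568-fold, 0.449 to 0.722), and Ccnb1, cyclin B1, at 13.2 and 7.56 CPM (0.571-fold, 0.312 to 1.07). Of the 39 mitosis genes outside the list with enough UMIs 2 were higher and 3 lower, against 5.97% and 7.49% of all genes. Ncapg, a condensin subunit, had 8 and 46 UMIs, whereas Nek2, a centrosome kinase, had 14 and 16 UMIs, Kif2c, a microtubule-depolymerising kinesin, 10 and 12, and Aspm, of the spindle pole, stood at 22.5 and 13.6 CPM.

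The NK mitotic total rested on few control cells. The 5 cells with the most mitotic UMIs held 62.8% of the control total and 26.4% of the IL4 total, and the top control cell alone 17.4%. Without the top cell of each library the mitotic log2 ratio was 0.17. For replication the top 5 cells held 28.4% and 16.3%. Counted by cells, 13.3% (24 of 180) of control and 20.8% (91 of 438) of IL4 NK cells were replication-positive, a difference of 7.44 points (Newcombe 95% interval 0.70 to 13.3). Mitotic-positive cells made up 9.44% and 10.5%, 1.06 points apart (-4.69 to 5.79). These shares are of thinned cells. Without thinning the replication-positive share was nearly the same in both libraries, with 51.4% of IL4 NK cells. Replication-only cells then went the other way, with 36.1% in control and 32.6% in IL4 NK cells. At least 1 replication UMI was found in 73.3% of control and 72.4% of IL4 NK cells. A larger share of replication-positive IL4 NK cells thus depends on thinning. Xist-only NK cells had a replication fold of 1.75 and Y-only ones of 1.85, but the mitotic fold was 1.48 (1.33 to 1.65) in Xist-only and 0.803 (0.709 to 0.910) in Y-only ones, with 50 and 44 Y-only cells. Cells with UMIs of Gzmc, a granzyme of strongly activated killer cells, numbered 31 of 180 and 96 of 442. The replication level was 650.1 and 1098 CPM in them, and 381 and 571 CPM in the cells without. The excess of replication over mitotic log2 ratio in NK cells was 0.75, and lay between 0.24 and 1.20 over 10 other ways of choosing or weighting cells.

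**Figure D4:**
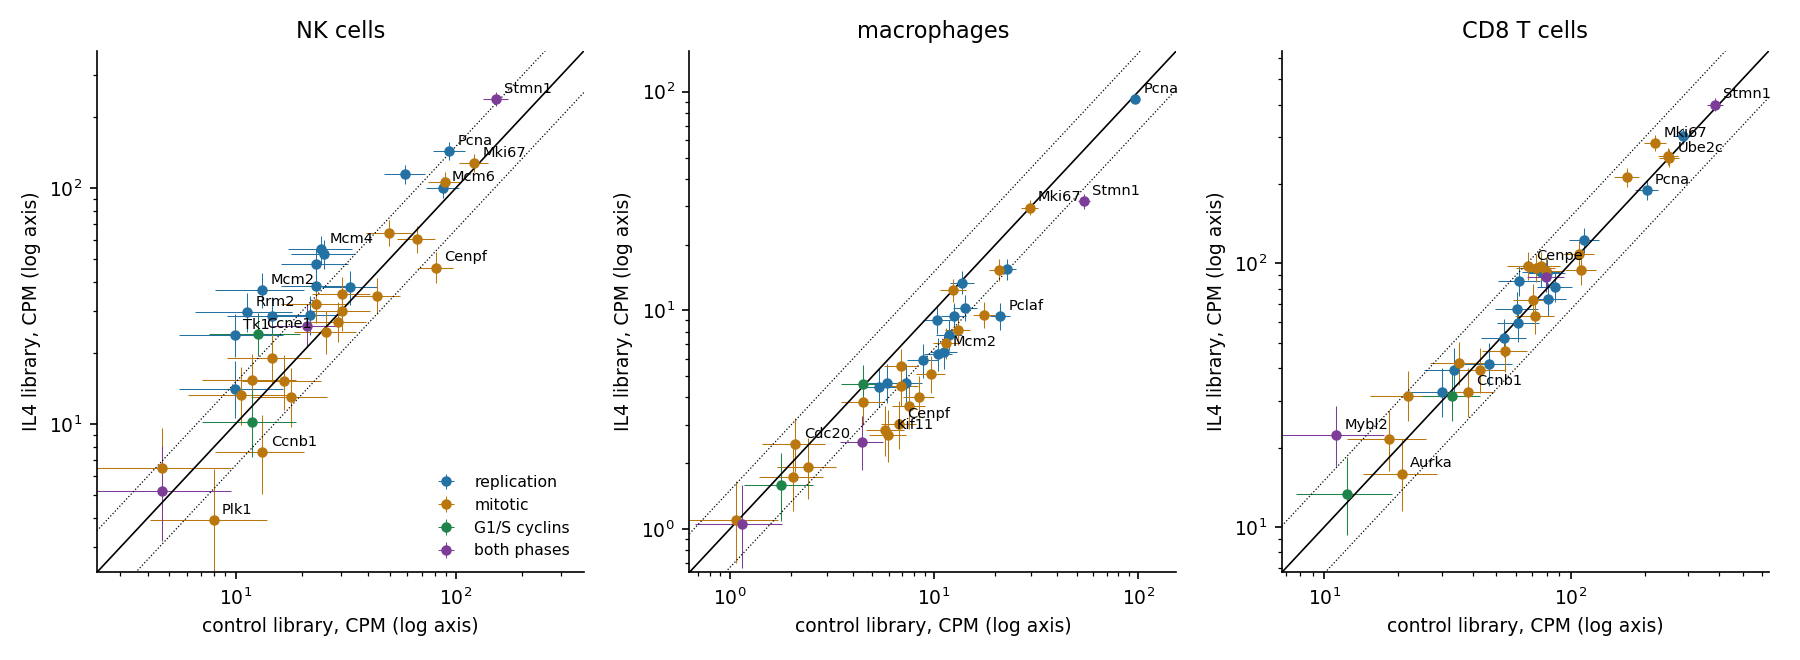
CPM of each gene in the control (horizontal) and IL4 (vertical) library in NK cells, macrophages and CD8 T cells, on log axes, coloured by group, with exact 95% counting intervals. The solid line marks equal levels and dotted lines 1.5-fold, without the pseudocount. In NK cells the blue replication genes lie above the solid line, in macrophages most genes lie below it, and in CD8 T cells most lie along it.

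CD8 T cells, highest among the types with at least 100 cells in each library, differed little between the libraries. Replication genes were 1.04-fold higher (0.990 to 1.10) and mitotic genes 1.10-fold higher (1.05 to 1.15) in 196 IL4 than in 106 control cells. Of the 38 genes 1 was at least 1.5-fold higher and none lower, where 5.69% and 6.74% of all genes were. That gene was Mybl2, at 11.2 and 22.2 CPM (1.99-fold, 1.17 to 3.52). Next came Cenpe, a kinetochore motor, at 67.2 and 97.9 CPM (1.46-fold, 1.16 to 1.83), and Bub1, a checkpoint kinase, at 21.8 and 31.5 CPM. At the other end lay Aurka, the spindle-pole kinase, at 20.6 and 15.9 CPM, Ccnb1 at 38.3 and 32.6 CPM, and Cenpf at 110.2 and 94.1 CPM, all with intervals that hold 1.

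Mki67 stood at 220.4 CPM in control and 286 CPM in IL4 CD8 T cells (1.30-fold, 1.15 to 1.47), and Top2a at 249.3 and 255 CPM. Pcna stood at 204 and 189.8 CPM, Mcm5 at 53.6 and 52.3 CPM, and Rrm2 at 86.6 and 81.5 CPM. Cdk1 stood at 71.9 and 63.0 CPM, Stmn1 at 387 and 399.9 CPM, Ccne1 at 33.0 and 31.5 CPM, and Ccne2 at 12.4 and 13.3 CPM. Apart from Mki67 these intervals held 1. Of pathway genes outside the list none of 28 replication genes passed 1.5-fold in either direction; Cdc6, at 18.3 and 27.1 CPM, came nearest. Of 40 mitosis genes 3 were higher and 1 lower, against 5.69% and 6.74% of all genes. The genes that passed were Kif23 and Nek2, Kif2c, and Ncaph of condensin, the last at 34.2 and 20.02 CPM. Regulators higher by that measure were 4 of 25, among them Rbl1, the pocket protein p107, at 26.5 and 45.6 CPM and Cdkn2a, at 40.1 and 67.5 CPM, while Cdkn2b, an inhibitor of CDK4 and CDK6, was lower at 10.6 and 5.56 CPM. Ccnd1, cyclin D1, had 3 and 17 UMIs.

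By cells after thinning, the share of CD8 T cells positive for both groups was 24.5% among control and 31.3% among IL4 cells. That of mitotic-only cells was 20.8% and 11.3%, a difference of -9.47 points (-18.9 to -1.04). The other class differences had intervals that hold 0. Without thinning both shares went the other way, to 64.2% and 55.1% positive for both groups and 1.89% and 7.14% mitotic-only. The direction of these class differences thus depends on thinning. The mitotic fold was 0.899 (0.851 to 0.951) in Xist-only cells and 1.88 (1.70 to 2.08) in Y-only cells, of which there were 31 in each library, so the total joins opposite directions. Without the 5% of cells with the most UMIs the log2 ratios were -0.22 for replication and -0.03 for mitosis, in place of 0.06 and 0.14. The replication fold was 1.12 and 1.06 in these subsets. CD8-negative T cells, with 81 and 131 cells, had 557 and 582 CPM of replication and 346 and 537 CPM of mitotic genes. The same control cell held 133 of their 320 replication and 72 of their 199 mitotic UMIs. NK markers stood at 429.6 and 1143 CPM in these cells and T cell markers at 3265 and 2543 CPM, and the part of NK cells in the values was not tested. Regulatory T cells, with 1345 and 1669 CPM of replication genes, numbered 15 and 10, too few to describe by gene.

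Macrophages had fewer transcripts of both groups in the IL4 library. Replication genes were 1.26-fold lower (1.21 to 1.32) and mitotic genes 1.41-fold lower (1.33 to 1.48) in 2365 IL4 than in 1541 control cells. Of the 38 genes 34 had a log2 ratio below 0, 14 were at least 1.5-fold lower and none was higher, where 4.44% and 3.18% of all genes were. With a pseudocount of 10 CPM in place of 1 only 2 were lower. The lower ones at 1 CPM were 9 mitotic genes, 3 replication genes, Ccna2 and Stmn1. The medians were -0.47 for replication and -0.52 for mitosis, beside -0.09 for all genes. In this pooled material fewer dividing cells and less RNA in each cannot be told apart from the totals alone.

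Pclaf had the lowest ratio in macrophages, at 21.1 CPM in the control and 9.42 CPM in the IL4 library (0.447-fold, 0.373 to 0.535). Cenpf stood at 6.73 and 3.03 CPM and Kif11, the motor that spreads the spindle poles, at 5.97 and 2.69 CPM. Next to these stood Aurkb and Birc5 of the chromosomal passenger complex, which corrects chromosome attachment, at 5.78 and 2.83 CPM and at 17.6 and 9.56 CPM. Stmn1 stood at 54.0 and 31.6 CPM, Mcm5 at 10.5 and 6.34 CPM, Rrm2 at 7.30 and 4.66 CPM and Mcm2 at 11.2 and 6.44 CPM. Other genes were level. Mki67 stood at 29.4 and 29.5 CPM (1.01-fold, 0.890 to 1.14), Pcna at 96.2 and 92.7 CPM (0.964-fold, 0.900 to 1.03) and Ccne1 at 4.51 and 4.61 CPM. Top2a, at 20.9 and 15.3 CPM, and Cdk1, at 6.92 and 4.52 CPM, lay between. Ccnb1 (2.41 and 1.92 CPM) and Ccne2 (1.78 and 1.59 CPM) were scarce. The highest ratios were those of Cdc20, at 2.09 and 2.45 CPM, Ccne1 and Plk1, with 17 and 23 UMIs.

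Mitosis genes outside the list followed in macrophages, with 9 of 39 lower and none higher. Nusap1, of the spindle microtubules, stood at 6.92 and 2.69 CPM, Cdca2 at 2.54 and 0.865 CPM, Dlgap5 at 4.25 and 1.97 CPM and Ect2, which works in cytokinesis, at 6.03 and 3.27 CPM. Of 28 replication genes 1 was lower, against 4.44% of all genes. It was Pola1 of DNA polymerase alpha, at 21.5 and 13.4 CPM. Cdkn1a stood at 529 CPM in the control and 946 CPM in the IL4 library, Cdk6, a cyclin D kinase, at 171 and 257 CPM, and Ccnd3, cyclin D3, at 130 and 82.0 CPM.

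The share of positive cells was lower in IL4 macrophages. Replication-positive cells made up 8.48% (7.10% to 10.0%) of control and 5.93% (4.99% to 6.99%) of IL4 macrophages, a difference of -2.55 points (-4.34 to -0.86), and mitotic-positive ones 4.31% and 2.94%, a difference of -1.37 points (-2.69 to -0.15). Cells positive for both groups made up 1.78% (26 of 1462) and 0.535% (12 of 2243). Both mitotic shares and the IL4 replication share lay below at least 1 upper end of the neutrophil intervals given above, so they were not distinguished from neutrophils. A mitotic-positive cell held on average 3.81 thinned mitotic UMIs in control and 3.23 in IL4 macrophages, values without an interval from 63 and 66 cells chosen for 2 or more such UMIs. The 5 cells with the most mitotic UMIs held 24.9% of the control and 15.6% of the IL4 mitotic UMIs. Among thinned macrophages with fewer than 2 mitotic UMIs the mitotic level was 67.9 and 67.8 CPM. That cut itself limits these values, so their closeness does not show where the difference lies. T cell and NK markers stood at 22.6 and 94.6 CPM in positive IL4 macrophages and at 20.8 and 46.6 CPM in the other IL4 macrophages, and melanoma markers at 28.4 and 24.3 CPM. In control macrophages T cell markers stood at 10.4 and 13.2 CPM and NK markers at 37.98 and 30.4 CPM. Without cells with a melanoma UMI the log2 ratios were -0.59 for mitosis and -0.32 for replication, in place of -0.49 and -0.33. The part of T cell and NK RNA in the result was not tested. In Xist-only macrophages the folds were 0.764 for replication and 0.676 for mitosis, and in Y-only ones, 372 and 197 cells, they were 1.07 (0.951 to 1.21) and 0.961 (0.808 to 1.14). In Y-only cells both intervals held 1.

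In type 2 conventional DCs the totals were lower in the IL4 library while the share of positive cells was not shown to differ. Replication genes were 1.38-fold lower (1.32 to 1.45) and mitotic genes 1.28-fold lower (1.22 to 1.34) in 891 IL4 than in 671 control cells. Of the 38 genes 35 had ratios below 0 and 12 were at least 1.5-fold lower, against 4.87% of all genes (2 with a pseudocount of 10 CPM), and none was higher, against 2.09%. Mybl2 was the lowest, at 6.30 and 2.06 CPM, then Rrm2 at 17.3 and 7.98 CPM and Ccnb1 at 5.71 and 2.40 CPM. Cdk1 stood at 10.8 and 6.09 CPM, Stmn1 at 83.3 and 57.1 CPM, Mcm5 at 16.7 and 12.02 CPM, Pcna at 85.6 and 68.5 CPM and Top2a at 57.6 and 47.0 CPM. Mki67 (64.5 and 60.8 CPM), Ccne1 (10.4 and 9.96 CPM) and Ccne2 (2.96 and 2.40 CPM) had intervals that hold 1, as did the 3 genes above 0, Cdca3, Gins2 and Aurka. Of 40 mitosis genes outside the list 18 were lower, led by Ttk, a checkpoint kinase, with 29 and 11 UMIs, Ncaph, Aspm and Ect2, and of 28 replication genes 3, led by Cdc45, which unwinds DNA with the Mcm helicase, at 6.60 and 2.92 CPM. Cdkn1a was higher, at 479.7 and 837 CPM. Replication-positive cells made up 9.40% and 9.78%, 0.37 points apart (-2.65 to 3.28), and mitotic-positive ones 7.16% and 6.40%. The mean thinned mitotic UMIs per mitotic-positive cell were 6.12 and 4.67. These values have no interval and come from 48 and 57 cells chosen for 2 or more such UMIs. The 5 cells with the most mitotic UMIs held 25.7% of the control and 17.2% of the IL4 total. Without thinning 25.0% and 29.1% of cells were mitotic-positive. When cells were gated after thinning to 2000 UMIs, the mitotic log2 ratio turned from -0.36 to 0.82. Of 10 alternatives this was the only one to turn it and 9 kept its direction. With 1 more marker gene needed it was -0.26.

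Type 1 conventional DCs showed smaller differences. Replication genes were 1.08-fold lower (1.03 to 1.14) and mitotic genes 1.05-fold lower (1.002 to 1.10) in 304 IL4 than in 202 control cells. Lower by 1.5-fold were 2 of 38 genes, against 5.17% of all genes, and none was higher, against 5.89%. They were Cdc20, at 20.5 and 12.3 CPM (0.598-fold, 0.431 to 0.827), and Cdk1, at 36.0 and 22.5 CPM (0.624-fold, 0.490 to 0.793). Cenpf was next, at 48.0 and 35.1 CPM. Highest were Ccne1 (6.92 and 9.65 CPM), Ccna2 (25.2 and 34.0 CPM, 1.35-fold, 1.06 to 1.73) and Birc5 (68.8 and 86.5 CPM, 1.26-fold, 1.09 to 1.46). Mki67 stood at 123 and 136 CPM, Top2a at 109 and 103 CPM and Ccnb1 at 17.3 and 14.03 CPM. Mcm5 stood at 27.7 and 20.7 CPM, Pcna at 109.6 and 106 CPM, Rrm2 at 34.2 and 34.7 CPM, Stmn1 at 181 and 176 CPM and Ccne2 at 3.69 and 3.16 CPM. Outside the list, Orc1, of the origin recognition complex, had 14 and 44 UMIs, Clspn, of the replication checkpoint, stood at 29.3 and 16.3 CPM, Kif20a, a kinesin of cytokinesis, stood at 9.46 and 2.81 CPM, Aspm at 21.0 and 9.47 CPM and Cdkn1a at 112 and 221 CPM. Melanoma markers stood at 742 CPM in positive IL4 cells and at 5.69 CPM in the other IL4 cells, with melanoma UMIs in 6 of 78 positive cells. Without cells with a melanoma UMI the replication log2 ratio was -0.02 in place of -0.11. The mitotic ratio was then -0.10 in place of -0.07. The part of melanoma RNA in these values was not tested further. Both small differences turned under other choices: gated after thinning, the replication log2 ratio was 0.36 instead of -0.11, and without the 5% of cells with the most UMIs the mitotic one was 0.42 instead of -0.07.

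Monocytes had low levels, and these were higher in the IL4 library, more for mitosis than for replication. Mitotic genes stood at 50.5 CPM (47.4 to 53.7) in 2114 control and 78.7 CPM (75.4 to 82.2) in 3108 IL4 cells, 1.56-fold higher (1.45 to 1.68), and replication genes were 1.16-fold higher (1.09 to 1.22). Of the 37 genes with at least 20 UMIs 11 were at least 1.5-fold higher, where 2.18% of all genes were, and none was lower, where 1.98% were. With a pseudocount of 10 CPM 1 gene was higher. As given above, the shares of positive monocytes were not distinguished from those of neutrophils, so these differences are between low levels. Plk1, with 6 and 13 UMIs, was the gene left out. Pclaf stood at 1.98 and 5.58 CPM (2.82-fold, 1.98 to 4.11), Mki67 at 8.21 and 18.3 CPM (2.23-fold, 1.86 to 2.67) and Ccna2 had 8 and 37 UMIs. Top2a stood at 6.53 and 11.5 CPM, Stmn1 at 8.06 and 13.5 CPM, Rrm2 at 1.04 and 2.45 CPM and Ccne1 at 1.68 and 3.39 CPM. Pcna (60.2 and 63.8 CPM), Mcm5 (2.72 and 3.62 CPM), Cdk1 (1.68 and 1.85 CPM), Ccnb1 (8 and 24 UMIs) and Ccne2 (18 and 22 UMIs) had intervals that hold 1, as did the lowest, Cdc20, Gins2 and Aurkb.

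Of the monocyte mitotic UMIs 9.60% (control) and 4.11% (IL4) came from a single cell. The mitotic fold was 1.41 (1.27 to 1.56) in Xist-only and 1.46 (1.20 to 1.77) in Y-only monocytes. Outside the list 1 of 28 replication genes, Clspn, with 11 and 39 UMIs, and 2 of 34 mitosis genes, Ckap2l (4.70 and 8.10 CPM) and Cdkn3 (14 and 42 UMIs), were higher. Of all genes 2.18% were higher in monocytes. Ccnd1, the cyclin that links growth signals to G1, stood at 29.9 and 44.7 CPM and Cdkn1a at 645 and 870.4 CPM. In monocytes positive for either group, T cell markers stood at 35.8 CPM (control) and 39.0 CPM (IL4), against 13.5 and 19.5 CPM in the others. NK markers stood at 24.4 and 67.6 CPM, against 24.1 and 33.5 CPM. Melanoma markers stood at 39.0 and 14.3 CPM, against 4.39 and 7.32 CPM. Without cells with a melanoma UMI the mitotic log2 ratio was 0.60 in place of 0.64. The replication ratio was then 0.17 in place of 0.21. The part of such RNA in these values was not tested further.

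The intermediates joined lower replication and higher mitotic totals, with replication genes at 172 and 153 CPM and mitotic genes at 109.5 and 131 CPM. Of their 38 genes 2 were higher, against 2.66% of all genes, and 1 lower, against 2.46%. Melanoma markers stood at 645 CPM in the positive IL4 intermediates and at 14.03 CPM in the others. Without cells with a melanoma UMI the mitotic log2 ratio was 0.28 in place of 0.26. The replication ratio was then -0.16 in place of -0.17. The part of melanoma RNA in these totals was not tested further. Mature DCs, which carry antigen to lymph nodes, had 147 and 123 CPM of replication and 98.4 and 81.7 CPM of mitotic genes. Neutrophils had 314 and 126 CPM, and 255 and 48.7 CPM, but the top 5 of 254 control cells held 80.5% of the replication and 85.4% of the mitotic UMIs. Mixed barcodes with lymphocyte and myeloid markers had 701 and 612 CPM, and 1028 and 805 CPM. They outnumber the T cells, and the types of the cells in them were not resolved.

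**Figure D5:**
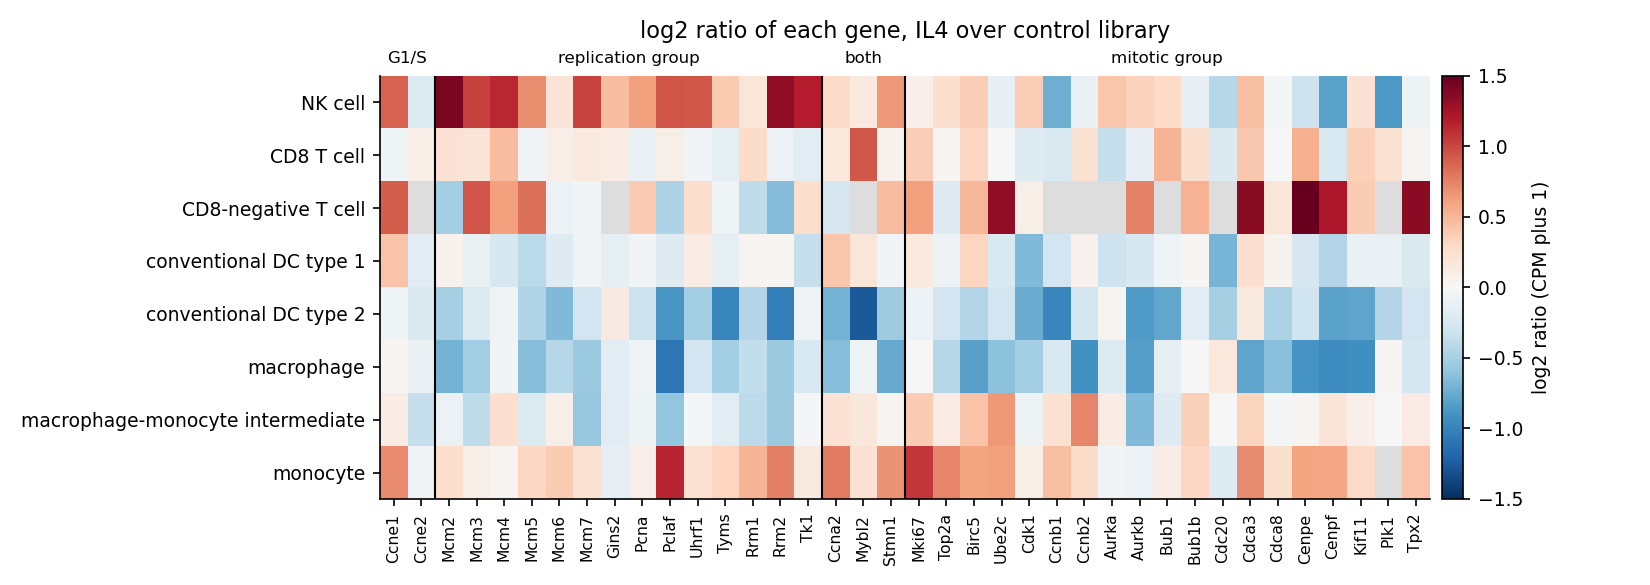
Log2 ratio of CPM plus 1, IL4 over control library, for each gene (columns, by group) in 8 cell types (rows), red where higher and blue where lower in the IL4 library, grey where the gene had fewer than 20 UMIs. The NK row is red over the replication genes and mixed over the mitotic genes, the macrophage and type 2 conventional DC rows are mostly blue, and the monocyte row is mostly red.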

How the data were processed

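The values deposited by the authors are UMI counts in whole numbers, a matrix of genes by barcodes for each of 2 libraries. The submitters' processing notes name Cell Ranger 7.2.0 and mm10, and no label gives the annotation. Barcodes were kept at 500 UMIs or more and 10% mitochondrial UMIs or less.

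Cell types were set by counting marker genes with a UMI: at least 4 of 7 for T cells, 4 of 9 for NK cells, 3 of 7 for B cells, 4 of 7 for plasmacytoid DCs, 5 of 9 for neutrophils, 6 of 10 for type 1 conventional and for mature DCs, 5 of 10 for type 2 conventional DCs, 5 of 12 for macrophages and 4 of 9 for monocytes. Macrophages and monocytes needed a lead of 0.15 in the fraction of markers found, and other such cells were intermediates. Lymphocytes with over 20 UMIs per 10000 of 8 myeloid genes were mixed, as were cells passing unrelated gates. These minimums were set after marker distributions had been seen. The genes and lists were chosen with earlier results of these data known.

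UMIs were summed per type and library and scaled to depth as CPM. Log2 ratios are of CPM plus 1 and folds of CPM. Levels have exact Poisson, folds exact conditional binomial and shares exact Clopper-Pearson 95% intervals, and differences of shares Newcombe intervals, which cover counting error only. Shares were taken in cells thinned to 2000 UMIs, leaving out shallower cells, for example 79 control and 122 IL4 macrophages. The precision follows the depth, from 574911 UMIs in control CD8-negative T cells to 26541572 in IL4 monocytes. Given for each type described in full were Mki67, Top2a, Cdk1, Ccnb1, Mcm5, Pcna, Rrm2, Ccne1, Ccne2, Stmn1 and the 3 genes with the highest and the lowest ratios among those with 20 UMIs, and outside the list up to 4 genes per pathway with the largest ratios. A gene that this rule names is not reported here. A few more were chosen after their values were seen, to describe complexes. Class comparisons used at least 20 UMIs over both classes. Scripts were tested on simulated data. Alternatives changed the CPM denominator, cell weighting, gates, filters, the sexes of cells, thinning, minimums and the pseudocount. Python 3.11.15 with numpy 2.4.6, scipy 1.17.1, pandas 2.3.3 and matplotlib 3.10.9 was used.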

Additional observations from a re-analysis of the deposited data

Results flagged for a closer look

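The cells were split by Xist or Y-linked UMIs, and in 4 cases the IL4 and control libraries differed in opposite directions in the 2 subsets, with each fold's counting interval away from 1. The difference between the subsets was not itself tested, and each subset of a library may hold cells of few mice. For mitotic genes in NK cells the log2 fold was 0.88 higher in Xist-only cells, where the fold was 1.48 (98 and 335 cells), than in Y-only cells, where it was 0.803 (50 and 44 cells). For mitotic genes in CD8 T cells this difference was -1.06, with folds of 0.899 and 1.88. For mitotic genes in mature DCs it was 1.26, with folds of 1.33 and 0.555. For replication genes in the macrophage-monocyte intermediates it was -0.50, with folds of 0.827 and 1.17.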

How the results depend on the processing

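No paired analysis was possible because there was 1 library per group. Values here are log2 ratios, IL4 over control. Of 100 recomputed values for the groups in macrophages, monocytes, CD8 T cells, NK cells and all kept cells, 56 stayed within their counting error and 44 moved. The NK replication ratio (0.74) was 0.49 as a mean over cells, 0.42 gated after thinning, 0.58 without the 5% of cells with the most UMIs and 0.89 in Y-only cells. The NK mitotic ratio (-0.01) was -0.23, -0.42, -0.41 and -0.32 under these choices, 0.22 without cells with a melanoma UMI, 0.57 in Xist-only cells and 0.17 without the top cell of each library, a choice made after seeing the data. For macrophages the mitotic ratio (-0.49) was -0.32, -0.14, -0.22 and -0.057 under the first 4 choices and -0.59 without melanoma-UMI cells, and the replication ratio (-0.33) was -0.26, -0.21, -0.27 and 0.10. For monocytes the mitotic ratio (0.64) was 0.39 as a mean over cells, 0.22 gated after thinning and 0.49 in Xist-only cells, and the replication ratio (0.21) was 0.11 as a mean and 0.13 in Xist-only cells. For CD8 T cells the mitotic ratio (0.14) was -0.021 as a mean, 0.035 gated after thinning, -0.026 without the deepest cells, -0.15 in Xist-only and 0.91 in Y-only cells. The CD8 replication ratio (0.06) was -0.030, -0.17 and -0.22 under the first 3, 0.19 without melanoma-UMI cells and 0.16 in Xist-only cells. Over all kept cells the mitotic ratio (0.01) was 0.10 as a mean, 0.13 without the deepest cells, 0.14 without melanoma-UMI cells, 0.12 in Xist-only and 0.15 in Y-only cells, and the replication ratio (-0.00) was 0.041, 0.043, 0.054 and, in Y-only cells, 0.22. Of the other values 836 were within error, 300 moved and 8 reversed. The neutrophil replication ratio (-1.32) reversed to 0.030 as a mean, 0.50 gated after thinning and 0.34 in Xist-only cells. In Xist-only NK cells Ccnb1 went to 1.84 and Cenpf to 0.0067, in type 2 conventional DCs gated after thinning Ccnb1 went to 0.99 and Cdk1 to 0.31, and Cdc20 in type 1 conventional DCs went to 0.063 without the deepest cells. With a pseudocount of 10 CPM the genes at least 1.5-fold lower numbered 2 in macrophages, not 14, and 2 in type 2 conventional DCs, not 12, and those higher in monocytes 1, not 11, because most of these genes lie at a few CPM. With at least 50 UMIs or a pseudocount of 10 CPM 1 gene was lower in NK cells, not 3. At 4 or more UMIs the share of replication-positive NK cells was 3.33% and 7.08%. Apart from the constructions named, the cause of each change was not tested.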
